A study of Homo sapiens with 9 samples.

Results

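The axon guidance ligands and receptors measured here are 63 of the 14943 genes in a count table from SH-Sy5y cells transfected with a mimic of the microRNA miR-1229-3p. They were chosen by symbol alone, as the semaphorins, plexins, neuropilins, EphA and EphB receptors, ephrins, Slit and Robo genes, netrins, UNC5 genes and DCC. Of 73 protein-coding symbols of these families in the GENCODE 44 annotation, 63 had a row. The members comprised 19 semaphorins, 9 plexins, 2 neuropilins, 5 EphA and 3 EphB receptors, 5 ephrin-A and 3 ephrin-B ligands, 3 Robo receptors, 3 Slit ligands, 5 netrins, 5 UNC5 genes and DCC, that is 35 ligands and 28 receptors. UNC5CL fits the symbol rule as a UNC5C-like gene but is not known as a netrin receptor.

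Guidance cues tell a growing axon where to turn, and the growth cone reads them through receptors at its surface. Secreted class 3 semaphorins act through neuropilin and plexin complexes, membrane-bound semaphorins bind plexins directly, ephrins signal to Eph receptor tyrosine kinases on neighbouring cells, Slits repel through Robo receptors, and netrins attract through DCC and repel through UNC5 receptors. The same families also act in vessels and in the migration of neural crest cells, the lineage from which neuroblastoma arises.

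SH-Sy5y cells are an established line derived from a human neuroblastoma. All cells received 40 pmol of oligonucleotide for 48 h before RNA extraction. The control (Ctrl.) received 40 pmol of negative control oligonucleotide, the 10 nM group 20 pmol of control and 20 pmol of miR-1229-3p precursor, and the 20 nM group 40 pmol of precursor with no control oligonucleotide, so more mimic and less control oligonucleotide cannot be told apart. Each group had 3 libraries, numbered 1 to 3, of a single cell line. The main p-values measure the spread between these libraries that remains once surrogate variables, hidden variation estimated from the same libraries, are in the model. That spread may be technical, and the main fits did not treat same-numbered libraries as pairs.

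Library totals ran from 17423969 to 28192775 counts, and the 63 genes took 0.472% to 0.512% of them. All 14 noradrenergic neuroblastoma markers had a row, with a summed level of 7054 to 8262 CPM (counts scaled to the TMM-adjusted library total) per library, although TH, the rate-limiting enzyme of catecholamine synthesis, averaged 0.598 CPM in Ctrl. Of 9 mesenchymal markers 8 had a row (284 to 401 CPM summed), of 6 glial markers 2 (4.27 to 6.33 CPM) and of 6 blood and endothelial markers 1 (2.93 to 4.13 CPM). Their part in the results was not tested, and in RNA from whole cultures fewer cells of a type and less RNA per cell cannot be told apart. The library 20 nM replicate 3 stood apart, at 47.4 on the first principal component against -17.1 to 7.72 for the other libraries, and counts and fitted changes at 20 nM are therefore also given without it.

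The transfected microRNA is shown because its seed, the bases that pair with target transcripts, defines the sites searched for in the 63 genes. The mature sequence is that of RefSeq, from chr5:179798278-179798300 on the minus strand of GRCh38.p14, with bases 2 to 8, the seed, in capitals.
hsa-miR-1229-3p: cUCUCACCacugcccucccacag

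Matches were sought on the sense strand of the longest annotated 3′ UTR of each gene. An 8-mer match reads GGTGAGAA, the 7-mers GGTGAGA (7-mer-m8) and GTGAGAA (7-mer-A1), and the 6-mer GTGAGA lies inside each of them, so every site was counted once under its longest form. Of the 62 members with a 3′ UTR of at least 50 bases, 22 (35.5%) held a 7-mer or 8-mer, beside 25.2% of all 13953 such genes. The median 3′ UTR length was 2393 bases in the members and 1868 bases in all genes. The 8-mer sites of 6 members are given below with their flanking bases and the match in capitals, since NTNG2, whose libraries were lower at each amount of mimic, is one of them. The sites lie on GRCh38.p14 at chr9:132242193-132242200 (NTNG2, plus strand), chr1:208023183-208023190 (PLXNA2, minus), chr1:151132279-151132286 (SEMA6C, minus), chr3:52433385-52433392 (SEMA3G, minus), chr3:97749285-97749292 (EPHA6, plus) and chr1:22603062-22603069 (EPHA8, plus).
NTNG2: cgaggccgggcGGTGAGAAgggtgcggccc
PLXNA2: gaggctcagtgGGTGAGAAaatgcaaagtg
SEMA6C: gaagagtgggaGGTGAGAAgcccgtctcct
SEMA3G: ccctgagctctGGTGAGAAaagctgaattt
EPHA6: ggtatgactatGGTGAGAAgggggttatta
EPHA8: aaagcacccagGGTGAGAAagccccatccc

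The 3′ UTR of NTNG2 also held a 6-mer at chr9:132244068-132244073 and a 7-mer at chr9:132244493-132244499. Of the members that rose at 20 nM, SEMA4F, SEMA6D and PLXNC1 held a 7-mer, and those sites are printed for comparison with that of NTNG2. They lie at chr2:74683581-74683587 (SEMA4F, plus), chr15:47772993-47772999 (SEMA6D, plus) and chr12:94306927-94306933 (PLXNC1, plus).
NTNG2 7-mer: tgtcttactgtGTGAGAAaaaaaataaac
SEMA4F: catagaggattGTGAGAAagggtccccat
SEMA6D: tgttgtgttatGTGAGAAttttctcctaa
PLXNC1: atcagaataaaGGTGAGAggtctggtccc

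Control SH-Sy5y cells expressed members of every family, over a range of levels from 0.109 to 165.8 CPM per kilobase of the longest annotated transcript. UNC5B, a repulsive netrin receptor, had the highest level, at 165.8 ± 5.62 CPM per kilobase (SD, n = 3). It was followed by SLIT3, a secreted Robo ligand, at 49.9 ± 3.79, and by the receptor PLXNB2 at 42.1 ± 1.71. The control libraries of UNC5B, SLIT3 and PLXNB2 did not overlap with those of the next gene in the order, but SEMA3C (38.4 ± 2.02) and UNC5C (38.2 ± 2.28) overlapped. In all, 45 of the 62 neighbouring pairs in this order overlapped. Levels of at least 10 CPM per kilobase were seen for 20 members and levels below 1 for 15.

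Within families the leading genes were SEMA3C, a secreted class 3 semaphorin, PLXNB2, EFNB2 (23.3 ± 0.698 CPM per kilobase), a transmembrane ephrin, EPHB4 (17.8 ± 1.72), its receptor, and EFNA2 (12.8 ± 0.318), a GPI-anchored ephrin. EPHA2, an ephrin-A receptor, led the EphA genes at 9.25 ± 0.909 CPM per kilobase, NTN3 the netrins at 7.46 ± 0.645 and ROBO1 the Robo receptors at 7.35 ± 0.0154. The neuropilins were low, with NRP1 at 1.38 ± 0.279 CPM per kilobase, and DCC, the attractive netrin receptor, was lowest at 0.109 ± 0.0265. The order depended on the length used. With the median length of the coding transcripts PLXNB2 came to 383.2 CPM per kilobase and UNC5B to 170.6, and the leading gene was the same in 11 of 12 families, the exception being the semaphorins, with SEMA4C at 120.3.

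**Figure D1:**
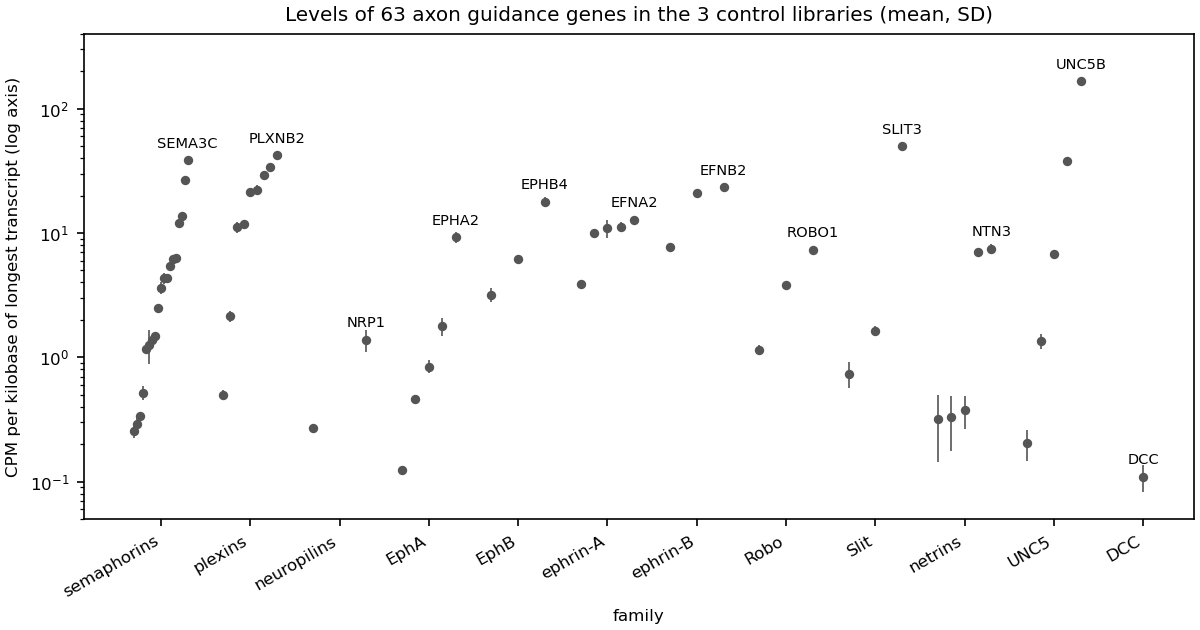
Levels of the 63 genes in the control libraries, by family. Each point is the mean of 3 libraries in CPM per kilobase of the longest transcript on a log axis, bars are SD, and the leading gene of each family is named; UNC5B at 165.8 is highest and DCC at 0.109 lowest.

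At 20 nM of mimic 16 of the 63 genes changed in the main fit, 9 higher and 7 lower than Ctrl. (quasi-likelihood test of edgeR, with 1 surrogate variable in the model and p adjusted over all genes by Benjamini-Hochberg, threshold 0.05). That was 25.4% of the members, beside 13.9% of all genes tested. Higher members made up 14.3% and higher genes 7.8%, lower members 11.1% and lower genes 6.08%. The symbol rule was set with earlier results of these data known, so these shares are descriptive. The median log2 fold change of the 63 genes was 0.10, with 0 over all genes. Without a surrogate variable 4 members passed (NTNG2, PLXNA1, SEMA4F and SLIT1), or 6.35%, and so did 6.38% of all genes, so that the members were then at the share of all genes. When replicate numbers entered the model as a block instead, 14 members passed, 8 of them shared, beside 13.6% of all genes. Without 20 nM replicate 3 and with the same number of surrogate variables 22 passed, 12 higher and 10 lower, 15 of them shared, beside 17.8% of all genes. Those not shared were EPHA2, EPHB4, SEMA5B and UNC5D as higher and SEMA4C, SEMA6C and PLXNA2 as lower. When the number of surrogate variables was estimated again for each fit, it was 29 without that library (29.2% of all genes), 8 without Ctrl. replicate 1 (10.1%), 10 without Ctrl. replicate 3 (9.93%), 10 without 20 nM replicate 1 (8.84%) and 7 without 20 nM replicate 2 (7.19%).

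At 10 nM none of the 63 genes passed the edgeR test, beside 0.649% of all genes. DESeq2 also called 0, 10 members (15.9%, beside 13.9% of all genes) had an unadjusted p under 0.05, and edgeR's likelihood-ratio test called 1, NTNG2, as lower (1.35% of all genes were lower in that test, and 0.428% in the quasi-likelihood test). Without 20 nM replicate 3 the number of surrogate variables was estimated as 2, and 9 members passed, 6 higher and 3 lower, beside 8.82% of all genes. With the number held at 1 it was 1 member, beside 1.07% of all genes.

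From 10 nM to 20 nM 6 members changed (9.52%, beside 2.79% of all genes). NRP1, SEMA4D and SEMA4F were higher (1.91% of all genes were) and EFNB2, NTNG2 and UNC5B lower (0.883%). With the replicate block 2 of these kept the call, SEMA4F and NTNG2, beside 0.83% of all genes. Without a surrogate variable 1 did, NTNG2, beside 0.448%. Without 20 nM replicate 1 none passed, and without 20 nM replicate 2, 10 nM replicate 1, 10 nM replicate 2 or 10 nM replicate 3 the counts were 2, 3, 2 and 3, beside 1.17%, 1.8%, 1.72% and 1.55% of all genes. Without 20 nM replicate 3 it was 13 (10% of all genes), or 7 with the number of surrogate variables held (3.09%). Across the 3 amounts, fitted as a linear trend with 2 surrogate variables, 16 members changed, 9 upwards and 7 downwards (25.4%, beside 17.5% of all genes, 9.84% upwards and 7.69% downwards). Without 20 nM replicate 2 it was 9 members, beside 9.16% of all genes. Taken over the 4 comparisons, 19 members passed at least once and 44 never did. For all genes that share was not computed, but it is at least the 17.5% of the trend alone.

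**Figure D2:**
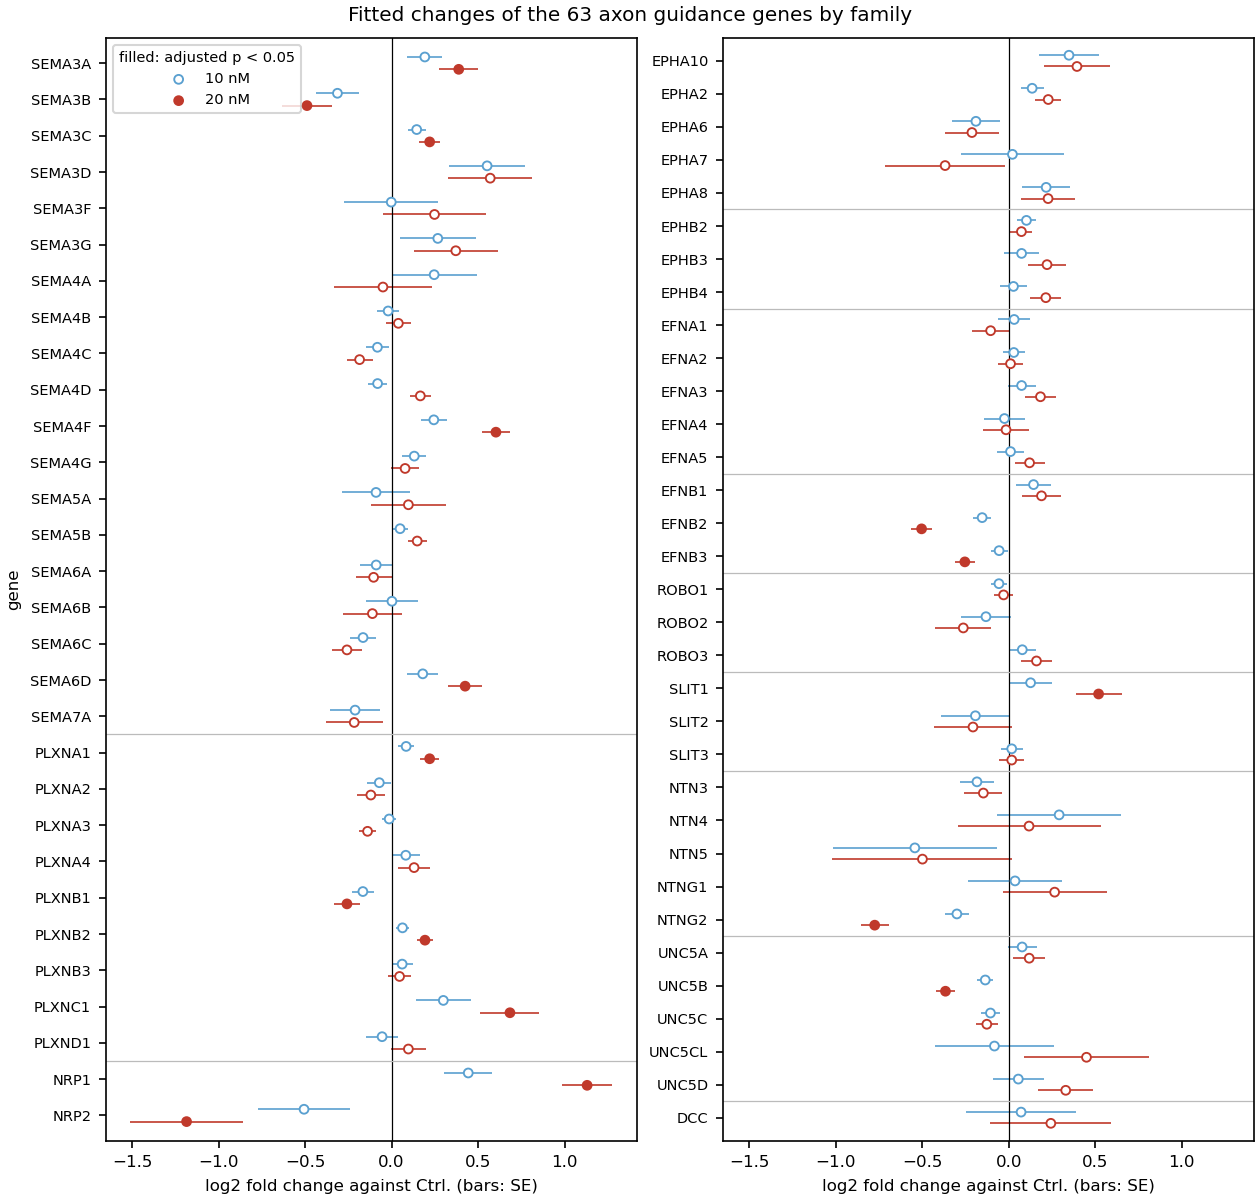
Fitted log2 fold changes of the 63 genes against Ctrl., at 10 nM (blue) and 20 nM (red), with bars of 1 SE and grey lines between families. Filled points have an adjusted p under 0.05; none of the 10 nM points is filled, and NRP1 and NRP2 at the foot of the left panel lie farthest from 0 in opposite directions at 20 nM.

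Among the semaphorins 4 of 19 rose and 1 fell at 20 nM. SEMA4F, a transmembrane class 4 semaphorin (chr2:74654228-74683853, plus strand), had 20.6, 20.5 and 24.8 CPM in Ctrl., 24.6, 28.1 and 28.9 CPM at 10 nM and 34.9, 34.2 and 48.5 CPM at 20 nM. All 3 libraries at 20 nM lay above every other library. At 20 nM the log2 fold change was 0.60 ± 0.083 (SE, n = 3 each, edgeR adjusted p = 0.000541) and 0.65 without 20 nM replicate 3. The trend was 0.68 ± 0.078 on the log2 scale from 0 to 20 nM (edgeR adjusted p = 8.7e-05), and both calls held in all 18 alternatives. From 10 nM to 20 nM SEMA4F was higher by 0.36 on the log2 scale (edgeR adjusted p = 0.0303), a call lost without any 1 of 6 libraries, namely Ctrl. replicate 1, each 10 nM library and 20 nM replicates 1 and 2 (adjusted p of 0.0504 to 0.147). This call was also lost without a surrogate variable (0.528, edgeR adjusted p = 0.178), and held with the replicate block (0.513, edgeR adjusted p = 0.0397).

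SEMA6D, a transmembrane ligand of class A plexins (chr15:47184101-47774228, plus strand), had 14.4, 14.9 and 16.0 CPM in Ctrl., 16.3, 15.9 and 18.2 CPM at 10 nM and 20.5, 20.0 and 16.0 CPM at 20 nM. The 20 nM libraries were above Ctrl., although replicate 3 by little. Its log2 fold change at 20 nM was 0.42 ± 0.097 (edgeR adjusted p = 0.0117), and 0.42 without 20 nM replicate 3. It was 0.32 (adjusted p = 0.0917) with the replicate block, and the call was also lost without 20 nM replicate 1 or 2 (adjusted p of 0.072 and 0.0923).

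The secreted class 3 semaphorins moved in both directions. SEMA3A, the prototype repellent for neuropilin-1 bearing axons (chr7:83955777-84492724, minus strand), had 9.51, 8.97 and 10.0 CPM in Ctrl., 11.7, 9.85 and 9.54 CPM at 10 nM and 13.1, 10.8 and 7.74 CPM at 20 nM. The groups overlapped, with 20 nM replicate 3 the lowest of all 9 libraries. The fitted log2 fold change at 20 nM was 0.39 ± 0.11 (edgeR adjusted p = 0.0375), but 0.33 without 20 nM replicate 3 (adjusted p = 0.0799) and 0.13 with the replicate block (adjusted p = 0.577). The call was also lost without Ctrl. replicate 1 or 2, 10 nM replicate 1, or 20 nM replicate 1 or 2 (adjusted p of 0.0585 to 0.467). SEMA3C (chr7:80742538-80922359, minus strand) had 188.8, 196.2 and 176.7 CPM in Ctrl., 206.8, 210.2 and 175.0 CPM at 10 nM and 215.4, 205.7 and 135.3 CPM at 20 nM. Here 20 nM replicates 1 and 2 were above and replicate 3 below every control library. The fitted log2 fold change of 0.22 ± 0.060 (edgeR adjusted p = 0.0276) was 0.17 without that library (adjusted p = 0.00904), and turned to -0.04 with the replicate block (adjusted p = 0.822) and to -0.01 without a surrogate variable (adjusted p = 0.963). The call was lost without Ctrl. replicate 1 or 3 or 20 nM replicate 1 or 2 (adjusted p of 0.052 to 0.222).

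SEMA3B, a class 3 semaphorin known as a candidate tumour suppressor (chr3:50267558-50277546, plus strand), had 15.0, 13.4 and 14.3 CPM in Ctrl., 13.7, 11.2 and 9.71 CPM at 10 nM and 9.37, 10.7 and 12.2 CPM at 20 nM. All 20 nM libraries were below Ctrl. Its log2 fold change at 20 nM was -0.49 ± 0.14 (edgeR adjusted p = 0.042), -0.51 without 20 nM replicate 3 and -0.40 with the replicate block (adjusted p = 0.0871). The call was lost without Ctrl. replicate 1 or 3, 10 nM replicate 2, or 20 nM replicate 1 or 2 (adjusted p of 0.0551 to 0.233).

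Other members of the family passed not at 20 nM against Ctrl. but in other comparisons. SEMA5B, a class 5 semaphorin with thrombospondin repeats (chr3:122909082-123028605, minus strand), had 64.6, 69.4 and 69.0 CPM in Ctrl., 71.2, 70.2 and 73.9 CPM at 10 nM and 77.7, 74.2 and 97.7 CPM at 20 nM. Its groups did not overlap, and the trend was 0.21 ± 0.050 on the log2 scale (edgeR adjusted p = 0.0107), or 0.16 without 20 nM replicate 3 and without a call when Ctrl. replicate 1 was left out (adjusted p = 0.0772). Without a surrogate variable the trend was 0.298 and did not pass either (edgeR adjusted p = 0.0632). With the replicate block SEMA5B also passed at 20 nM (0.29, adjusted p = 0.0424), as it did without 20 nM replicate 3 with the number of surrogate variables held. SEMA4D, the ligand of PLXNB1 (chr9:89360787-89498130, minus strand), had 35.8, 35.3 and 34.0 CPM in Ctrl., 32.5, 33.9 and 32.5 CPM at 10 nM and 39.1, 39.2 and 37.4 CPM at 20 nM. It was lowest at 10 nM and highest at 20 nM. The difference between 20 nM and 10 nM was 0.25 ± 0.057 on the log2 scale (edgeR adjusted p = 0.0392), and 8 of the 9 libraries, all but 20 nM replicate 3, ended the call when left out (adjusted p of 0.0503 to 0.201). The call was also lost with the replicate block (edgeR adjusted p = 0.139), without a surrogate variable (edgeR adjusted p = 0.246) and in DESeq2 (adjusted p = 0.0922). The other 12 semaphorins passed in no comparison of the main fits, with log2 fold changes at 20 nM from -0.26 (SEMA6C) to 0.57 (SEMA3D). Of these, SEMA4C and SEMA6C passed at 20 nM as lower without 20 nM replicate 3 with the number of surrogate variables held.

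Of the 9 plexins, the receptors of semaphorins, 3 rose and 1 fell at 20 nM. PLXNB2, a receptor of class 4 semaphorins (chr22:50274979-50307646, minus strand), had 260.1, 267.4 and 281.7 CPM in Ctrl., 282.0, 282.8 and 308.9 CPM at 10 nM and 309.5, 322.1 and 426.0 CPM at 20 nM. Each group lay above the previous one, with 20 nM replicate 3 highest. Against Ctrl. the log2 fold change at 20 nM was 0.19 ± 0.045 (edgeR adjusted p = 0.0135) and 0.22 without that library, but 0.38 with the replicate block and 0.39 without a surrogate variable, where the call was lost (adjusted p = 0.0567). It was also lost without Ctrl. replicate 1 or 20 nM replicate 2 (adjusted p of 0.0579 and 0.0628), whereas the trend of 0.27 ± 0.040 (edgeR adjusted p = 0.000538) held in all 18 alternatives. PLXNA1, a co-receptor of class 3 semaphorins (chr3:126982693-127037389, plus strand), had 287.3, 275.4 and 258.3 CPM in Ctrl., 294.1, 294.1 and 286.6 CPM at 10 nM and 320.5, 314.8 and 340.8 CPM at 20 nM. All 20 nM libraries were above all others. The log2 fold change was 0.22 ± 0.053 at 20 nM (edgeR adjusted p = 0.0161) and 0.21 without 20 nM replicate 3, with the call lost without Ctrl. replicate 3 or 20 nM replicate 1 (adjusted p of 0.0644 and 0.0655). The trend, 0.24 ± 0.049 (edgeR adjusted p = 0.00462), held in all 18 alternatives.

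PLXNC1, the receptor of SEMA7A (chr12:94148577-94307675, plus strand), was the lowest plexin per kilobase and had 3.43, 3.68 and 4.10 CPM in Ctrl., 4.30, 4.17 and 4.92 CPM at 10 nM and 5.82, 6.19 and 4.17 CPM at 20 nM. All treated libraries were above Ctrl. At 20 nM the log2 fold change was 0.68 ± 0.17 (edgeR adjusted p = 0.0187), the same without 20 nM replicate 3, and 0.52 with the replicate block (adjusted p = 0.0851). Leaving out Ctrl. replicate 1 or 20 nM replicate 1 or 2 ended the call (adjusted p of 0.0554 to 0.126). PLXNB1, the SEMA4D receptor (chr3:48403854-48430086, minus strand), had 155.8, 147.7 and 166.3 CPM in Ctrl., 149.5, 131.5 and 147.7 CPM at 10 nM and 136.7, 127.3 and 169.2 CPM at 20 nM. The groups overlapped, with 20 nM replicate 3 the highest library. The fitted log2 fold change at 20 nM was -0.26 ± 0.074 (edgeR adjusted p = 0.0358), -0.25 without that library and -0.12 with the replicate block (adjusted p = 0.257). The call was lost without Ctrl. replicate 1 or 3 or 20 nM replicate 2 (adjusted p of 0.0509 to 0.229). With 2 surrogate variables it was lost as well (-0.209, edgeR adjusted p = 0.063). The remaining plexins, PLXNA2, PLXNA3, PLXNA4, PLXNB3 and PLXND1, ranged from -0.14 to 0.13 on the log2 scale at 20 nM. PLXNA2 passed as lower without 20 nM replicate 3 with the number of surrogate variables held.

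Both neuropilins, the ligand-binding co-receptors of class 3 semaphorins, changed at 20 nM, and in opposite directions. NRP1, which binds SEMA3A and also VEGF (chr10:33177492-33336262, minus strand), had 8.84, 9.30 and 6.26 CPM in Ctrl., 12.3, 10.4 and 8.06 CPM at 10 nM and 17.5, 15.5 and 9.40 CPM at 20 nM. In each numbered set of 3 libraries the level went up from Ctrl. to 10 nM and from 10 nM to 20 nM. Its log2 fold change at 20 nM was 1.13 ± 0.15 (edgeR adjusted p = 0.000343) and 1.04 without 20 nM replicate 3. It was 0.78 with the replicate block and 0.80 without a surrogate variable, where the call was lost (adjusted p = 0.0659). The trend was 1.03 ± 0.13 (edgeR adjusted p = 0.00017) and held in all 18 alternatives. From 10 nM to 20 nM it was higher by 0.69 ± 0.14 on the log2 scale (edgeR adjusted p = 0.0196), a call lost without 10 nM replicate 2 or 3 or 20 nM replicate 1 or 2 (adjusted p of 0.0596 to 0.179). This call was also lost with the replicate block (0.447, edgeR adjusted p = 0.116) and without a surrogate variable (0.458, edgeR adjusted p = 0.557).

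NRP2, which binds SEMA3F (chr2:205681990-205798133, plus strand), was near the lower end of detection and had 1.66, 1.95 and 1.75 CPM in Ctrl., 1.46, 0.957 and 1.49 CPM at 10 nM and 0.67, 0.946 and 1.26 CPM at 20 nM. All 6 treated libraries were below all 3 controls. Its log2 fold change at 20 nM was -1.19 ± 0.33 (edgeR adjusted p = 0.0304), -1.14 without 20 nM replicate 3 and -0.90 with the replicate block (adjusted p = 0.0667). The call was lost without any 1 of the 3 control libraries or without 20 nM replicate 1 or 2 (adjusted p of 0.0533 to 0.173). It was also lost with 2 surrogate variables (-1.125, edgeR adjusted p = 0.059) and with none (-0.888, edgeR adjusted p = 0.0877). The trend was -1.02 ± 0.30 (edgeR adjusted p = 0.0334), lost without 20 nM replicate 1 or 2 (adjusted p of 0.0522 and 0.0654) and without a surrogate variable (edgeR adjusted p = 0.0636).

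**Figure D3:**
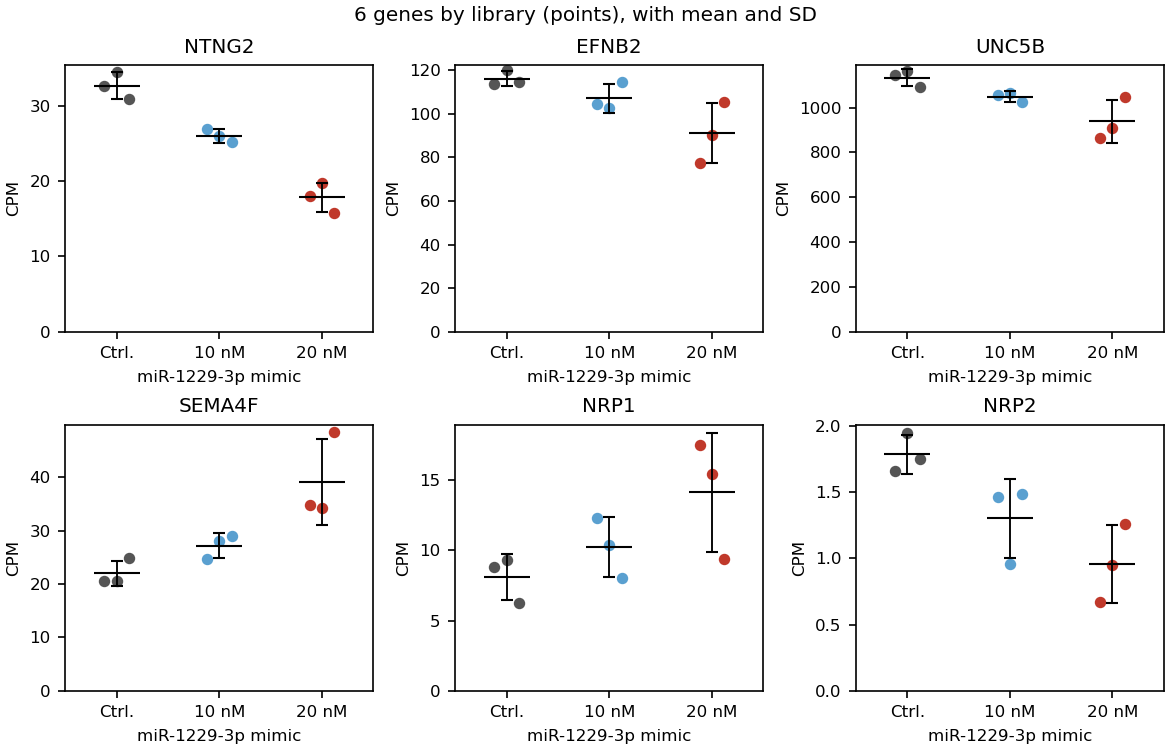
CPM of NTNG2, EFNB2, UNC5B, SEMA4F, NRP1 and NRP2 in each library (points), with the mean and SD of 3 libraries per group, on linear axes from 0. The NTNG2 groups do not overlap at any step, and NRP1 and NRP2 run in opposite directions.

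None of the 8 Eph receptors passed at 20 nM in the main fit. Without 20 nM replicate 3 and with the number of surrogate variables held, EPHA2 and EPHB4 passed there as higher. EPHB4 then also passed in the trend. EPHA2, a receptor of ephrin-A ligands (chr1:16124337-16156069, minus strand), had 32.8, 40.0 and 36.6 CPM in Ctrl., 37.6, 43.2 and 44.1 CPM at 10 nM and 43.2, 44.7 and 62.6 CPM at 20 nM. All 20 nM libraries were above Ctrl., with replicate 3 highest. The trend was 0.29 ± 0.065 on the log2 scale (edgeR adjusted p = 0.00798), 0.24 without 20 nM replicate 3, and lost without Ctrl. replicate 1 (adjusted p = 0.0565). At 20 nM its log2 fold change was 0.23 (adjusted p = 0.0612), and 0.45 with the replicate block (adjusted p = 0.025). The 3 EphB receptors had log2 fold changes at 20 nM of 0.07 to 0.22, none past the threshold in the main fit, and the other EphA receptors of -0.37 (EPHA7) to 0.39 (EPHA10). With the replicate block EPHA8 (0.48, adjusted p = 0.0131) and EPHA10 (0.49, adjusted p = 0.045) also passed.

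Of the ephrins, the ligands of these receptors, 2 of the 3 transmembrane ephrin-B genes fell and none of the 5 GPI-anchored ephrin-A genes changed, with log2 fold changes at 20 nM of -0.10 to 0.18 for the latter. EFNB2, the ligand of EPHB4 (chr13:106489745-106535662, minus strand), had 113.8, 120.2 and 114.6 CPM in Ctrl., 104.4, 102.5 and 114.8 CPM at 10 nM and 77.6, 90.3 and 105.3 CPM at 20 nM. All 20 nM libraries were below Ctrl. and replicate 3 was the closest to it. Against Ctrl. the log2 fold change at 20 nM was -0.50 ± 0.061 (edgeR adjusted p = 0.000214), and -0.47 without 20 nM replicate 3, but -0.35 without a surrogate variable, where the call was lost (adjusted p = 0.0573). The trend was -0.46 ± 0.064 (edgeR adjusted p = 0.000318) and held in all 18 alternatives. Between 10 nM and 20 nM EFNB2 was lower, with a log2 difference of -0.35 ± 0.057 (edgeR adjusted p = 0.00559), a call lost without 20 nM replicate 1 (adjusted p = 0.154). This call was also lost with the replicate block (-0.242, edgeR adjusted p = 0.248) and without a surrogate variable (-0.235, edgeR adjusted p = 0.475). EFNB3 (chr17:7705202-7711372, plus strand) had 63.2, 70.4 and 67.1 CPM in Ctrl., 63.9, 64.3 and 68.3 CPM at 10 nM and 54.7, 59.4 and 67.1 CPM at 20 nM, so the groups overlapped through replicate 3. Its fitted log2 fold change of -0.25 ± 0.057 at 20 nM (edgeR adjusted p = 0.0108) was -0.23 without 20 nM replicate 3, -0.15 with the replicate block (adjusted p = 0.161), and lost without 20 nM replicate 1 (adjusted p = 0.14). EFNB1 had a log2 fold change of 0.19 at 20 nM that did not pass (adjusted p = 0.306), and 0.45 with the replicate block (adjusted p = 0.0288).

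In the Slit and Robo families 1 of 6 genes changed. SLIT1, a secreted repellent of the brain (chr10:96998038-97185959, minus strand), had 12.2, 14.5 and 12.4 CPM in Ctrl., 12.5, 15.7 and 14.9 CPM at 10 nM and 16.5, 21.7 and 19.5 CPM at 20 nM. All 20 nM libraries were above the rest. At 20 nM the log2 fold change was 0.52 ± 0.13 (edgeR adjusted p = 0.021) and 0.56 without 20 nM replicate 3, and the call was lost without Ctrl. replicate 1 or 3 or 20 nM replicate 2 (adjusted p of 0.0658 to 0.191). SLIT3, the Slit with the highest level, averaged 484.6 CPM in Ctrl. and 483.6 CPM at 20 nM, a log2 fold change of 0.02 (adjusted p = 0.918). SLIT2, ROBO1, ROBO2 and ROBO3 ranged from -0.26 to 0.16 and did not pass in the main fits. Without 20 nM replicate 1 ROBO2 passed as lower at 20 nM (-0.631) and in the trend (-0.52).

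NTNG2, or netrin-G2, was the only netrin to change. Netrin-G proteins are GPI-anchored relatives of the secreted netrins that bind leucine-rich repeat ligands at synapses rather than DCC. NTNG2 (ENSG00000196358, chr9:132162058-132244526, plus strand) had 32.7, 34.5 and 30.9 CPM in Ctrl., 27.0, 25.9 and 25.1 CPM at 10 nM and 18.04, 19.7 and 15.8 CPM at 20 nM. The libraries of each amount lay wholly below those of the previous one. The log2 fold change was -0.30 ± 0.068 at 10 nM, which did not pass (edgeR adjusted p = 0.0716). At 20 nM it was -0.78 ± 0.080 (edgeR adjusted p = 6.56e-05), or -0.79 without 20 nM replicate 3. The trend was -0.82 ± 0.076 (edgeR adjusted p = 2.25e-05). Both of these calls held in all 18 alternatives. Between 10 nM and 20 nM NTNG2 was lower, with a log2 difference of -0.47 ± 0.077 (edgeR adjusted p = 0.00518), lost without 20 nM replicate 1 (adjusted p = 0.0524). The other netrins had log2 fold changes at 20 nM from -0.50 (NTN5) to 0.27 (NTNG1), at mean levels in Ctrl. of 0.775 to 16.3 CPM.

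Of the 5 UNC5 genes and DCC, counted by symbol among the receptors, UNC5B alone passed in the main fits. UNC5B (chr10:71212570-71302864, plus strand) had 1146, 1165 and 1091 CPM in Ctrl., 1058, 1067 and 1024 CPM at 10 nM and 863.8, 906.6 and 1048 CPM at 20 nM. All treated libraries were below Ctrl., and 20 nM replicate 3 lay within the 10 nM range. Its log2 fold change at 20 nM was -0.37 ± 0.053 (edgeR adjusted p = 0.000728), and -0.36 without 20 nM replicate 3, but -0.27 without a surrogate variable, where the call was lost (adjusted p = 0.0545). The trend was -0.34 ± 0.051 (edgeR adjusted p = 0.000548) and held in all 18 alternatives. From 10 nM to 20 nM it was lower, with a log2 difference of -0.23 ± 0.049 (edgeR adjusted p = 0.0258), a call lost without 10 nM replicate 1 or 2 or 20 nM replicate 1 or 2 (adjusted p of 0.0736 to 0.289). This call was also lost with the replicate block (-0.162, edgeR adjusted p = 0.35) and without a surrogate variable (-0.16, edgeR adjusted p = 0.52). UNC5A, UNC5C, UNC5CL and UNC5D had log2 fold changes at 20 nM of -0.13 to 0.45 that did not pass, of which UNC5D passed with the replicate block (0.47, adjusted p = 0.0202). UNC5D also passed at 20 nM and in the trend without 20 nM replicate 3 with the number of surrogate variables held. UNC5C passed as lower in the trend with the replicate block (-0.17, edgeR adjusted p = 0.048). At 20 nM UNC5C passed as lower without 20 nM replicate 3 when the number of surrogate variables was estimated again (-0.153). DCC, at 1.11 CPM in Ctrl. and 1.46 CPM at 20 nM, had 0.24 (adjusted p = 0.709).

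**Figure D4:**
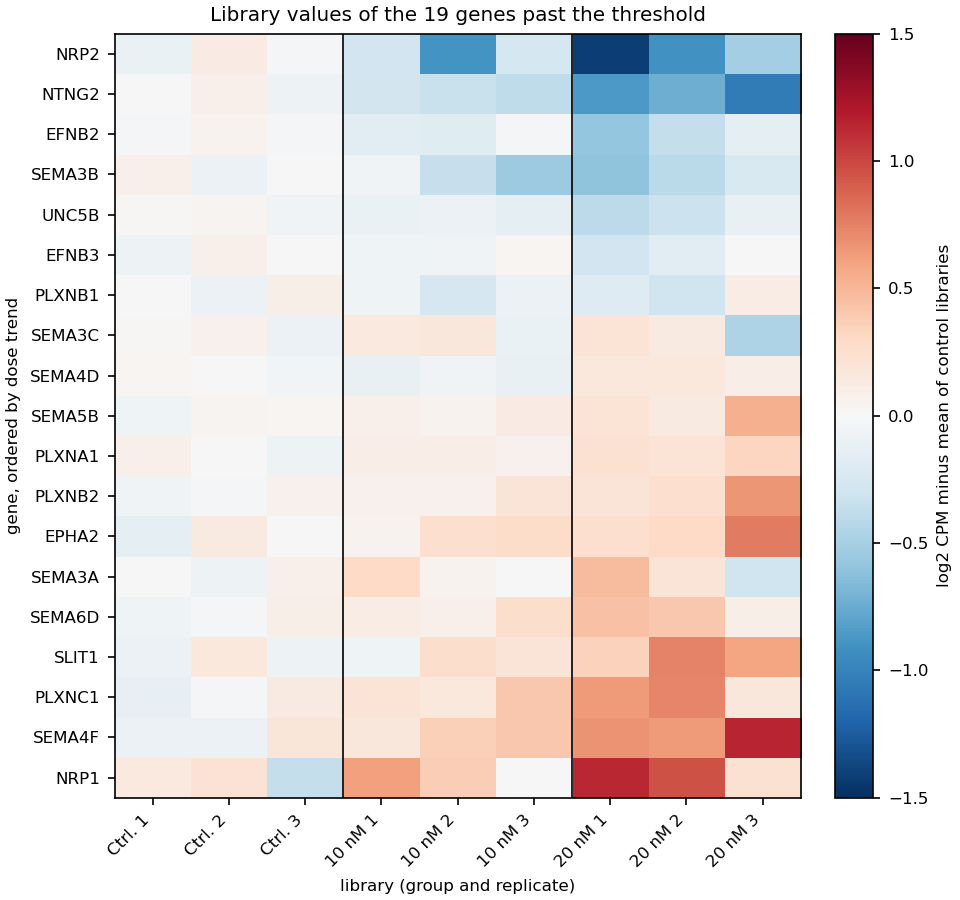
Library values of the 19 genes past the threshold in at least 1 comparison, as log2 CPM minus the mean of the 3 control libraries (blue lower, red higher), ordered by the dose trend. NRP2 and NTNG2 stand at the top, NRP1 and SEMA4F at the foot, and SEMA3A, SEMA3C and PLXNB1 have an opposite colour in 20 nM replicate 3 from the other 20 nM libraries.

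Counted on the library values without a model, all 3 libraries at 20 nM lay above all 3 controls for 17 members (27%, beside 15.2% of all genes) and below them for 9 (14.3%, beside 13.7%). Of the 16 members that passed at 20 nM, 12 had groups that did not overlap, and SEMA3A, SEMA3C, PLXNB1 and EFNB3 were the 4 that overlapped. At 10 nM 3 members lay wholly above Ctrl. (10.1% of all genes did) and 8 wholly below (9.9%). Between 10 nM and 20 nM 9 members lay wholly above (7.92% of all genes) and 1, NTNG2, wholly below (6.32%). By role, 5 of the 35 ligands were higher and 4 lower at 20 nM in the edgeR test, and 4 of the 28 receptors were higher and 3 lower. Of all genes 7.8% were higher and 6.08% lower. With the number of surrogate variables held and 20 nM replicate 3 left out, 5 ligands were higher and 6 lower (14.3% and 17.1%). Of the receptors 7 were then higher and 4 lower (25% and 14.3%), beside 9.78% and 7.99% of all genes.

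Members with a seed match were found among those that rose and those that fell. At 20 nM, of the 22 members with a 7-mer or 8-mer 3 rose (SEMA4F, SEMA6D and PLXNC1) and 1 fell (NTNG2), with a median log2 fold change of 0.10. Of the 29 with no match 3 rose and 4 fell. Of all 3514 genes with a 7-mer or 8-mer 280 rose and 345 fell, and of the 8054 with no match 656 rose and 364 fell. When 20 nM replicate 3 was left out and the number of surrogate variables held, 4 of the 22 members were higher and 3 lower. Of all genes with a 7-mer or 8-mer 9.53% were then higher and 12.8% lower. Of the 29 members 4 were higher and 5 lower, beside 10.5% and 5.93% of all genes with no match. NTNG2 was the only one of the 6 members with an 8-mer that passed at 20 nM in the main fit. The others had log2 fold changes of -0.26 (SEMA6C), -0.21 (EPHA6), -0.12 (PLXNA2), 0.23 (EPHA8) and 0.37 (SEMA3G). Without 20 nM replicate 3 and with the number of surrogate variables held, SEMA6C and PLXNA2 also passed as lower. EPHA8 passed as higher with the replicate block. NRP2, PLXNB1, NRP1, PLXNB2 and SLIT1 held a 6-mer alone, and EFNB2, EFNB3, UNC5B, SEMA3B, SEMA3A, SEMA3C and PLXNA1 no match in this 3′ UTR. For PLXNB1 the longest 3′ UTR among its protein-coding transcripts was another one and held no match. A match is a description of the letters and not of binding.

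**Figure D5:**
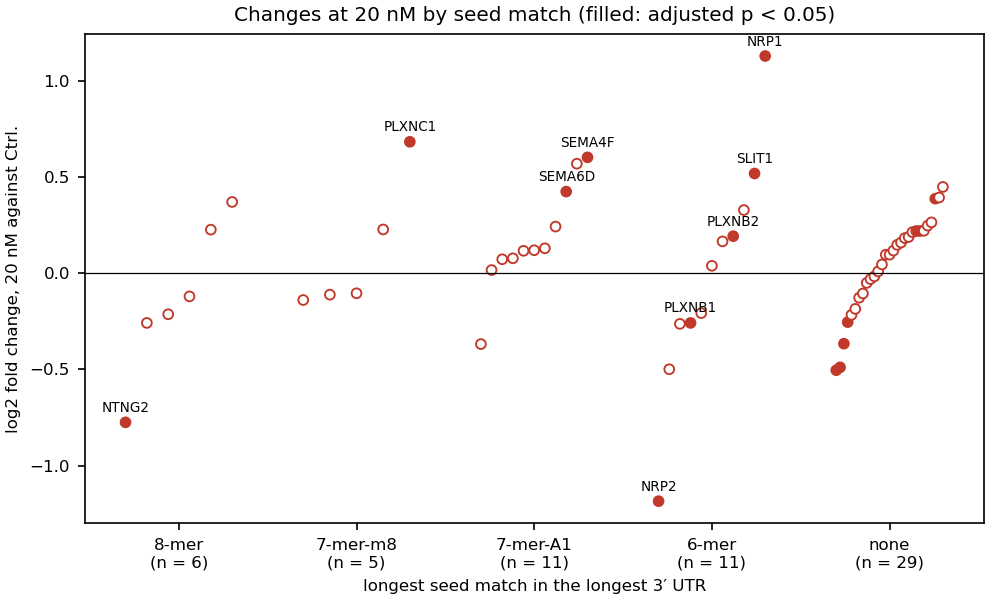
Log2 fold changes at 20 nM against Ctrl. for the 62 members with a 3′ UTR, by the longest seed match of miR-1229-3p in the longest annotated 3′ UTR. Each point is a gene, filled where the adjusted p is under 0.05; the 8-mer column holds NTNG2 at -0.78 as its only filled point, and the 7-mer columns hold filled points above 0 alone.

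Genes that act beside these ligands and receptors, taken from 4 lists, passed at 20 nM as follows. In semaphorin-plexin signalling 1 of 19 was higher and 5 lower, with a median log2 fold change of -0.06 beside 0 over all genes. In ephrin-Eph signalling none of 21 was higher and 2 lower, in Slit-Robo signalling none of 20 was higher and 3 lower, with medians of -0.04 and -0.09, and in netrin signalling and related guidance 6 of 24 were higher and 1 lower, with a median of 0.02. Of all genes 7.8% were higher and 6.08% lower. In the fit that leaves out 20 nM replicate 3, with the number of surrogate variables held, the lists in the same order had 2 higher and 4 lower, 1 higher and 3 lower, none higher and 5 lower, and 6 higher and 1 lower, beside 9.78% and 7.99% of all genes.

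In the semaphorin-plexin list DPYSL3, a CRMP-family protein of the growth cone cytoskeleton, had 1507 CPM in Ctrl. and 1217 CPM at 20 nM (trend -0.33 on the log2 scale, edgeR adjusted p = 0.000673), and MICAL1, an actin-oxidising enzyme downstream of plexins, 139.9 and 117.6 CPM (trend -0.31, edgeR adjusted p = 0.000942). FARP2, a Rac activator bound to plexin A, rose from 57.3 to 64.7 CPM (trend 0.23, edgeR adjusted p = 0.0091) and MICAL2 from 2.90 to 4.73 CPM (trend 0.59, edgeR adjusted p = 0.0452), a call lost without 20 nM replicate 3 (adjusted p = 0.0638). The FARP2 groups overlapped. In the Slit-Robo list EVL, an Ena/VASP protein, had 141.5 and 116.9 CPM (trend -0.32, edgeR adjusted p = 0.00112) and the kinase PAK1 38.8 and 31.3 CPM (trend -0.35, edgeR adjusted p = 0.00304). The kinase ABL1 of the ephrin-Eph list had 229.3 and 203.9 CPM (trend -0.21, edgeR adjusted p = 0.00967) and the adaptor SHC1 680.9 and 644.9 CPM (trend -0.17, edgeR adjusted p = 0.0334). Both overlapped between 20 nM and Ctrl. through 20 nM replicate 3, which had 228.8 CPM of ABL1 and, at 729.2 CPM, the highest SHC1 value of all 9 libraries. In the netrin list ELMO1, a partner of the Rac activator DOCK1, rose from 71.7 to 102.9 CPM (trend 0.52, edgeR adjusted p = 2.75e-05) and the lipid transfer protein PITPNA from 74.6 to 101.8 CPM (trend 0.37, edgeR adjusted p = 0.00135), while DRAXIN, a secreted guidance cue that binds DCC, fell from 10.4 to 7.61 CPM (trend -0.54, edgeR adjusted p = 0.017).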

How the data were processed

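RNA of SH-Sy5y cells transfected for 48 h was sequenced in 9 libraries, 3 each of Ctrl., 10 nM and 20 nM. Per the study's methods and the submitters' processing notes, the authors mapped reads with Salmon on GRCh38.p13, summed estimated counts to genes and removed low genes with edgeR's filterByExpr. The Salmon version and strandedness are not given in the sources used here, so reads of overlapping or antisense genes may not be told apart. The deposited estimated counts (88.8% not whole) were rounded. The authors' comparison tables (fold changes and p-values) and their log2 table corrected for surrogate variables were not used.

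Counts were normalised by TMM in edgeR 4.0.16 (R 4.3.3) and tested by quasi-likelihood over all 14943 genes, with Benjamini-Hochberg adjustment and a threshold of 0.05. Surrogate variables came from sva 3.50.0 on log2 CPM with a prior count of 2, their number (1 by group, 2 by amount) being estimated between 1 and 3. SEs were obtained by dividing log2 fold changes by the root of F. The fit was also run on simulated counts with a random hidden factor. These had no library built to stand apart and no pairing, so that run cannot speak to calls that depend on either. CPM values are not corrected for surrogate variables. Levels per kilobase used the longest transcript of GENCODE 44; 14105 genes were found there under their identifier, a further 754 (SEMA7A among them) under their symbol, and 84 were not found.

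Alternatives were RLE size factors, library totals, a filter of 1 CPM in 3 libraries, other numbers of surrogate variables, a replicate block, the likelihood-ratio test, DESeq2 1.42.0 and leaving out each library. The library 20 nM replicate 3 was also left out with the number of surrogate variables held. In the trend this number was 2 either way, so the same fit is counted 2 times among the 18 alternatives. Named members are those past the threshold in any comparison and the highest per family, and from each list at most 2 genes per direction with the smallest trend p. A member that passed in an alternative alone is not always named. Members were picked by the symbol rule alone and not by their values, but the rule and the lists were set with earlier results of these data known.

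Same-numbered libraries deviated together from their group means between Ctrl. and 10 nM (r of 0.142 to 0.185) and between Ctrl. and 20 nM (0.107 to 0.116), so the numbers were taken to pair these samples; between 10 nM and 20 nM r was 0.0288 to 0.176. The pairing comes from these correlations, since the labels give only the numbers. The main fits, with their SEs and adjusted p, did not use it, and only the replicate block did. Of the calls in the main fits the block kept 8 of 16 at 20 nM, 2 of 6 from 10 nM to 20 nM and 11 of 16 in the trend. No pair of replicates agreed within sampling noise (chi-square per degree of freedom of 4.69 to 46.5).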

Additional observations from a re-analysis of the deposited data

How the results depend on the processing

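The calls depended most on the surrogate variable and on single libraries. Without a surrogate variable the members past the threshold were 4 at 20 nM, 1 from 10 nM to 20 nM and 9 in the dose trend. Of all genes 6.38%, 0.448% and 8.27% then passed. SEMA3C at 20 nM changed sign without it (-0.014) and with the replicate block (-0.038). With the replicate block 0 members passed at 10 nM, 14 at 20 nM, 2 from 10 nM to 20 nM and 17 in the trend, of which 11 were shared. Of all genes 0.0201%, 13.6%, 0.83% and 16.4% then passed. Between 10 nM and 20 nM the r of same-numbered libraries was 0.174 and 0.176 for numbers 1 and 3, and 0.0288 for number 2. Leaving out each library in turn gave 0 to 9 members at 10 nM, 7 to 29 at 20 nM, 0 to 13 from 10 nM to 20 nM and 9 to 22 in the trend. The shares of all genes moved as well, over 0.228% to 8.82%, 7.19% to 29.2%, 0.743% to 10% and 9.16% to 22.2%. At 10 nM the likelihood-ratio test gave 1, and leaving out 20 nM replicate 3 with the number of surrogate variables held gave 1. The causes were not tested. RLE size factors and library totals kept all 16 members at 20 nM. With 2 surrogate variables by group, 0 members passed at 10 nM, 16 at 20 nM and 7 from 10 nM to 20 nM. With 1 by amount 16 passed in the trend. Of all genes 0.85%, 13.1%, 3.33% and 17.6% then passed. At 20 nM 14 of the 16 were shared, and NRP2 and PLXNB1 were lost. DESeq2 gave no adjusted p for NRP2.

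Of the called members under the alternatives, 228 fits kept the call at 20 nM, 57 lost it and 2 changed sign. From 10 nM to 20 nM 74 kept it and 34 lost it, and in the trend 257 kept it and 30 lost it. The trend numbers count the fit without 20 nM replicate 3 2 times for each member. Members with a 7-mer or 8-mer numbered 24 over any annotated 3′ UTR (38.7%, beside 29.6% of all genes). With protein-coding transcripts alone, a definition chosen after the first matches had been seen, they numbered 23 (37.1%, beside 22.6% of 13778 genes).

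Genes near 1 CPM, such as NRP2 and DCC, had the widest errors. With 3 libraries a group, of 1 cell line, and 20 nM replicate 3 standing apart, small changes remain unresolved.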
